A study of Mus musculus with 20 samples.

Results

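RNA from microdissected tissue labelled as young medium spiny neurons (yMSN, 1 library; the labels write "Medial Spiny") was compared with RNA from tissue labelled as young hippocampal CA pyramidal neurons (yCA, 1 library). These are 2 of the 20 mouse samples of the series, of which 6 are polyA RNA libraries with gene counts and 14 are bisulfite samples that were not analysed here. Both libraries came from brains of male, wild type C57BL/6 mice, as labelled, that were frozen and cryosectioned before dissection. The labels give no age, no treatment and no number of animals behind a library. The other RNA libraries were hippocampal precursors (HP, 1 library), striatal precursors (SP, 1 library) and dorsal medium spiny neurons (dMSN, 2 libraries), from mice with the same labels. They enter the scaling and are otherwise used here as levels beside the comparison. In a closing section SP is also set against HP. Of the 34620 gene symbols in the count tables, 12815 reached 5 CPM (counts relative to the scaled total of a library) in yMSN or yCA and entered the comparison. CPM values were scaled by TMM, a factor per library that balances the bulk of the genes.

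Medium spiny neurons are the principal cells of the striatum. They arise in the subpallium under factors of the Dlx family, release GABA, and in maturity carry dopamine receptors, the phosphoprotein encoded by Ppp1r1b and either enkephalin or substance P. CA pyramidal neurons are the excitatory output cells of the hippocampus, arise in the pallium under Emx, Neurog and Neurod factors, and release glutamate. The developing brain lies against nasal epithelium, skull, meninges and head muscle, each with genes that neurons are not known for, and these were listed separately from the neuronal genes.

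With 1 library on each side there is no replicate error and no test. Each difference is a log2 ratio of yMSN over yCA with an exact 95% binomial interval, which covers counting error only. The gene counts were 36969136 in yMSN and 35418531 in yCA, so 5 CPM stood for about 217 and 195 counts. A count of 0 was set to 3 counts (0.0691 CPM in yMSN, 0.0771 CPM in yCA), and the ratio is then a bound. The transcripts of the sex chromosomes did not match the male label. The level of Xist, the noncoding RNA of X inactivation in females, was 489 CPM in yMSN against 762 in yCA. From the Y chromosome, yMSN held 879 counts of Ddx3y, 753 of Eif2s3y and 476 of Kdm5d where yCA held 0 of each, and Uty had 302 and 14. Xist was thus present in both libraries, the Y-linked genes were absent or low in yCA, and no ratio below can be given without these libraries.

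At least 2-fold higher levels in yMSN were found for 1105 genes, 8.62% of the 12815, and at least 2-fold higher levels in yCA for 271 genes, 2.11%. In either direction the share was 10.7%. At 4-fold the counts were 408 and 24, and at 16-fold they were 81 and 3. The middle of the distribution was narrow: the median log2 ratio was -0.04 with quartiles of -0.30 and 0.28, against a median interval width of 0.22. The surplus of genes on the yMSN side was present at 2-fold, 4-fold and 16-fold. Of the called genes, 80.3% were higher in yMSN at 2-fold and 94.4% at 4-fold.

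Levels in the 4 other RNA libraries, which enter the ratio only through the scaling, split the called genes. Of the genes higher in yMSN, 849 (76.8%) reached 1 CPM in both dMSN libraries, 158 (14.3%) did not but reached it in HP or SP, and 98 (8.87%) did neither. Of those higher in yCA, the counts were 191 (70.5%), 25 (9.23%) and 55 (20.3%). Over all 12815 genes the shares were 94.9%, 3.53% and 1.53%. The last class held 196 genes, and its share was larger in both called sets than over all genes. A gene low in the other libraries enters the 12815 only through a young library in which it is high. The larger share thus follows in part from the 5 CPM filter, and no conclusion is drawn from it. Most called genes on each side were on no list. Beside neuronal genes, the 14 brain lists hold those of glia, microglia, vessels, choroid plexus, meninges and fibroblasts, and the cell cycle. In yMSN, 9 meninges and fibroblast genes and 7 microglia and macrophage genes were called, against 1 pallial and 1 subpallial factor. Called genes on the lists of tissues outside the brain fell in all 3 classes. On the yMSN side 42 reached 1 CPM in both dMSN libraries, 11 did not but reached it in HP or SP and 22 did neither, beside 25, 2 and 0 genes of the brain lists. On the yCA side the counts were 7, 3 and 10, beside 19, 2 and 0. The last class is defined by low levels in brain libraries, so the 0 brain genes there follow largely from its definition.

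**Figure D1:**
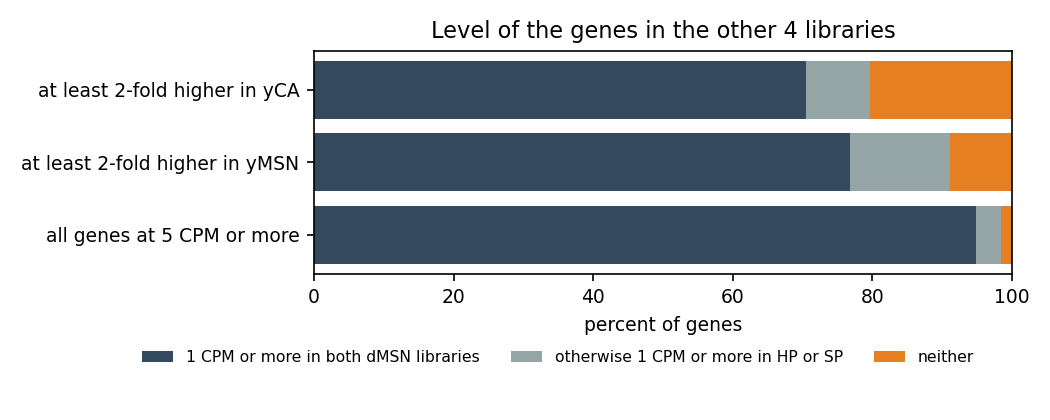
Share of genes (percent, horizontal axis) by their level in the other 4 RNA libraries, for all genes at 5 CPM or more and for the genes at least 2-fold higher in yCA or in yMSN. The orange segment, genes under 1 CPM in HP and SP and in at least 1 dMSN library, is 1.53% of all genes, 8.87% of those higher in yMSN and 20.3% of those higher in yCA.

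The marker genes Omp, Acan, Tg, Neurod6 and Gad1 were given before the comparison, and their levels describe these genes only. Omp, which encodes the olfactory marker protein of mature olfactory sensory neurons, stood at 42.9 CPM in yMSN, 0.283 in yCA, 0.115 in HP, 0.252 in SP, and 1.27 and 0.397 in the dMSN libraries (mean 0.834 ± 0.618, SD, n = 2). Acan, the aggrecan of cartilage, stood at 41.0 CPM in yMSN, 2.21 in yCA, 0.344 in HP, 1.33 in SP, and 6.69 and 5.36 in dMSN. In yMSN both genes were above each of the other 5 libraries. Tg, the thyroglobulin of the thyroid gland, stood at 76.6 CPM in yCA, 0.967 in yMSN, 0.258 in HP, 0.302 in SP, and 0.0665 and 0.233 in dMSN.

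The neuronal markers differed less. Neurod6, a transcription factor of pallial excitatory neurons, stood at 396 CPM in yCA and 169 in yMSN, a log2 ratio of -1.23 (interval -1.27 to -1.19), with 0.488 CPM in HP, 0.730 in SP, and 50.4 and 93.9 in dMSN. Gad1, an enzyme that makes GABA, stood at 95.7 CPM in yMSN and 117 in yCA, a log2 ratio of -0.29 (interval -0.35 to -0.23), with 504 and 570 CPM in dMSN. Centred on the median ratio of 24 genes common to all neurons, the ratio of Gad1 turned to 0.17, so the direction of the GABA marker depends on the scaling. The pallial marker was present in both young libraries.

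**Figure D2:**
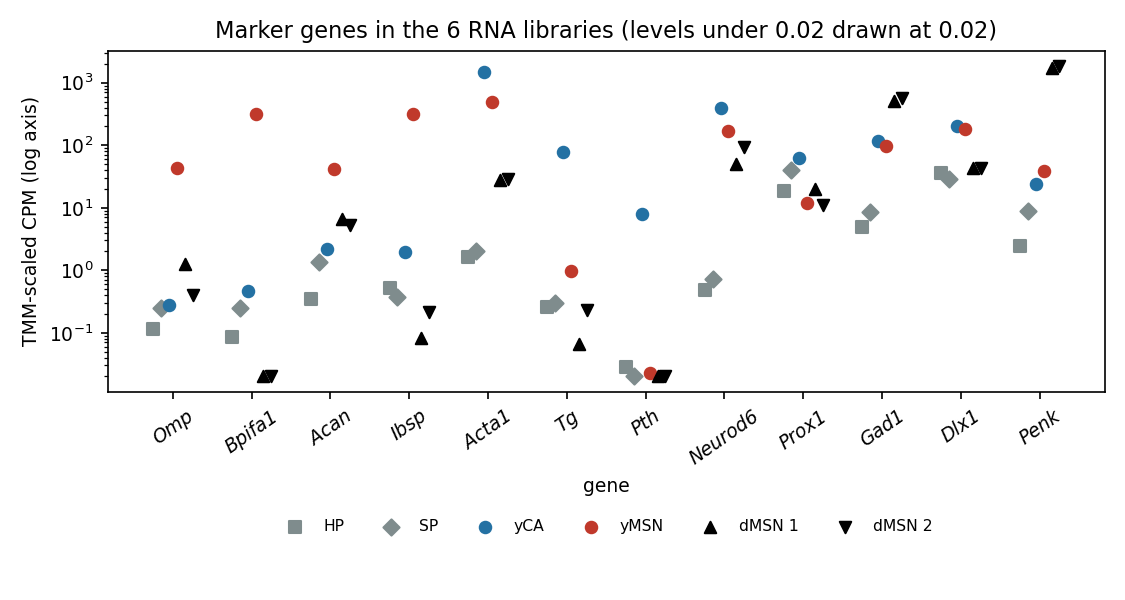
Level of 12 marker genes in each of the 6 RNA libraries (TMM-scaled CPM, log axis, 1 point per library). Omp, Bpifa1, Acan and Ibsp stand apart in yMSN, Tg and Pth in yCA, and Acta1 is high in both young libraries (1460 CPM in yCA, 500.0 in yMSN), while Gad1 and Dlx1 lie close together in yMSN and yCA.

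The 5 genes of GABA synthesis and transport were all lower in yMSN, by less than 2-fold, with a median log2 ratio of -0.29, but centred on the pan-neuronal genes all 5 were higher in yMSN, with a median of 0.17. Gad2, the other GABA-making enzyme, stood at 85.2 CPM in yMSN and 110 in yCA. Slc32a1, the vesicular GABA transporter, stood at 33.9 and 38.7. Both young libraries were above the precursors, whose list sums were 46.6 CPM in HP and 65.0 in SP against 364 in yMSN and 453 in yCA, and below the sums of 1585 and 1592 in dMSN. In bulk tissue, fewer cells of a type and less RNA per cell cannot be told apart.

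The subpallial and striatal transcription factors were near balance. Of 26 genes, 22 reached 5 CPM, 1 was at least 2-fold higher in yMSN and 0 in yCA, and the median log2 ratio was -0.10 (0.37 when centred on the pan-neuronal genes). The called gene was Sp8, a zinc finger factor of the lateral ganglionic eminence and olfactory bulb lineages, at 42.4 CPM in yMSN and 20.6 in yCA, a log2 ratio of 1.04 (interval 0.92 to 1.16). Dlx6 followed at 29.1 and 16.9 CPM and Ebf1, a factor of striatal and olfactory neurons, at 95.5 and 58.8. Dlx1 was close to equal, at 179 CPM in yMSN and 206 in yCA, as was Dlx2 at 63.6 and 67.1. Bcl11b, a factor needed for medium spiny neuron maturation, stood at 296 in yMSN and 361 in yCA. Nkx2-1 and Lhx6, which mark the medial ganglionic eminence, stood at 17.9 and 63.7 CPM in yMSN and at 22.1 and 77.3 in yCA. Apart from Sp8, the factors at 5 CPM differed by less than 2-fold between the young libraries, and 5 of the 22 were past 2-fold in yMSN when centred on the pan-neuronal genes.

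The pallial transcription factors leaned to yCA. All 24 reached 5 CPM, 10 were at least 2-fold higher in yCA, 1 in yMSN, and the median log2 ratio was -0.97. Lhx9 stood at 29.2 CPM in yCA and 4.49 in yMSN, a log2 ratio of -2.70 (interval -2.93 to -2.48). Prox1, a factor of dentate granule cells and of the thalamus, stood at 62.3 and 12.04 CPM (-2.37, interval -2.51 to -2.23). Bhlhe22, a repressor needed for hippocampal and cortical projection neurons, stood at 134 and 35.7 CPM, and Nr2f1, a regional patterning receptor, at 155 and 43.9.

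Zbtb18, which the files list as Zfp238 and which pyramidal neurons require, stood at 670 CPM in yCA and 224 in yMSN. Fezf2 stood at 53.3 and 19.2, Neurog2 at 44.1 and 19.5, and Neurod2 at 235 and 109. Tbr1, an early factor of glutamatergic neurons, differed less, at 209 CPM in yCA and 151 in yMSN, and so did Lhx2, a selector of hippocampal and cortical fate, at 121 and 107. Emx2 went the other way, at 32.1 CPM in yMSN and 19.5 in yCA. Neurog1, which also acts in the olfactory epithelium, stood at 7.73 CPM in yMSN and 0.745 in yCA, a log2 ratio of 3.38 (interval 2.83 to 3.98), against the direction of the list.

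The genes of glutamate release did not follow the pallial factors past 2-fold. Of 5 genes, 4 reached 5 CPM and 0 were called in either direction, with a median log2 ratio of -0.34 (0.13 when centred). Slc17a7, the vesicular glutamate transporter of cortical and hippocampal neurons, stood at 33.3 CPM in yMSN and 32.1 in yCA. Slc17a6, the transporter of thalamic and early neurons, stood at 43.2 and 63.6.

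**Figure D3:**
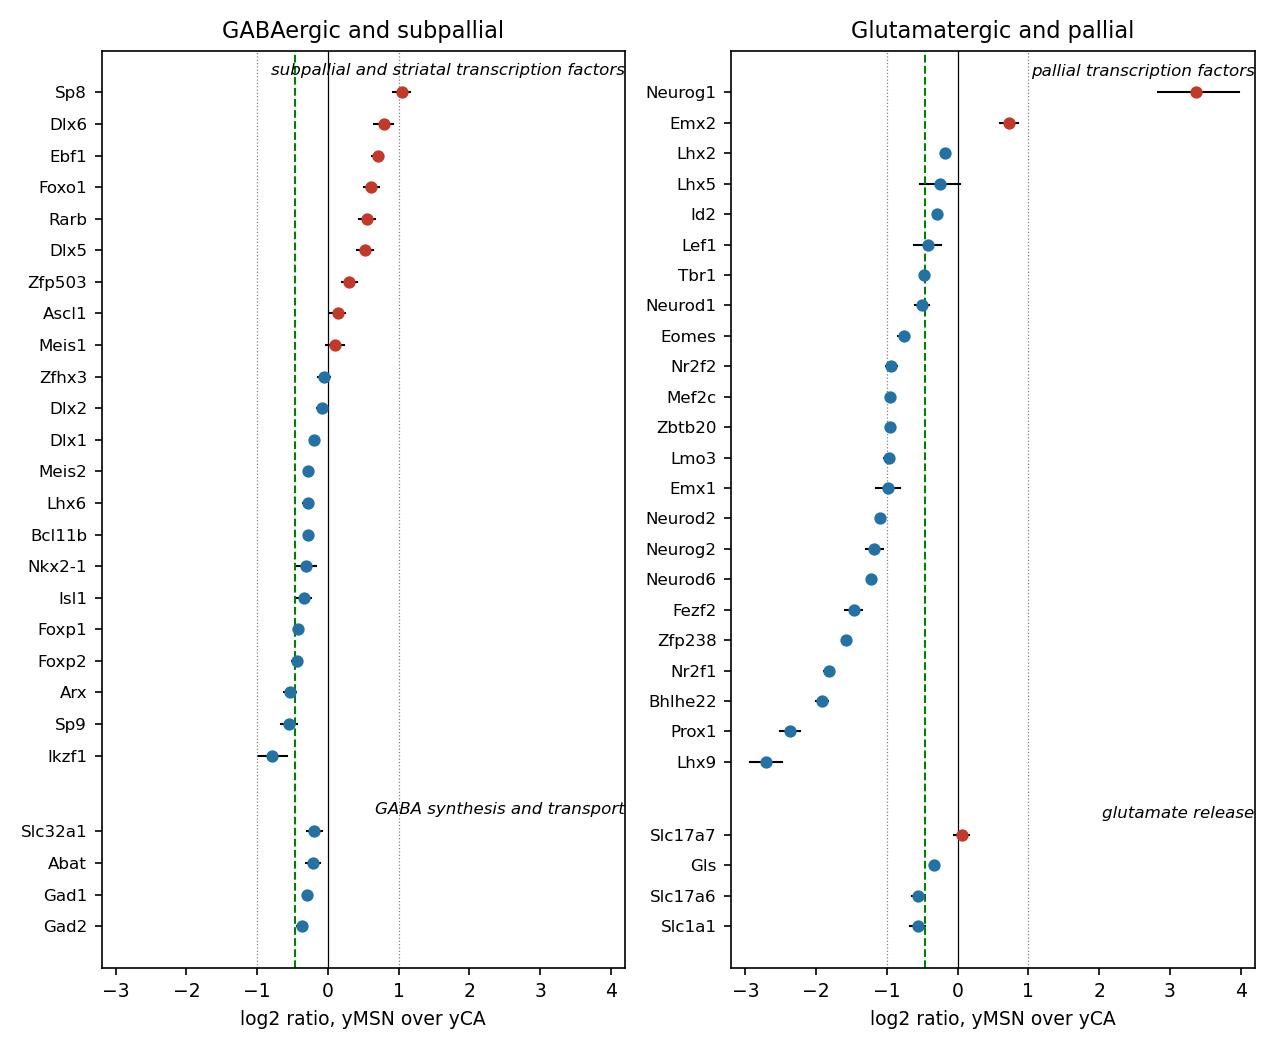
Log2 ratio of yMSN over yCA (horizontal axis, TMM-scaled, bars are 95% counting intervals) for genes of 4 identity lists that reached 5 CPM, of which 2 are not drawn; red is higher in yMSN, blue higher in yCA, dotted lines mark 2-fold and the green dashed line the pan-neuronal median of -0.47. The GABA genes drawn lie between -0.37 and -0.19, left of 0 and right of the pan-neuronal median, and the pallial factors spread from -2.70 (Lhx9) to 3.38 (Neurog1).

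Genes common to all neurons were themselves lower in yMSN. Of 24 pan-neuronal genes, 23 had a negative log2 ratio, the median was -0.47 (1.38-fold higher in yCA), and 1, Nefm, passed 2-fold at 40.1 CPM in yMSN and 81.7 in yCA. Stx1a, a synaptic fusion protein, was the exception at 0.14. Dcx, a microtubule protein of migrating young neurons, stood at 1168 CPM in yMSN and 2102 in yCA, and Tubb3, the neuronal tubulin, at 1097 and 1637. When each ratio was centred on the pan-neuronal median, the GABA median became 0.17, the glutamate median 0.13 and the subpallial median 0.37, so these changed sign, while the pallial median stayed negative at -0.50. The median of all genes then stood at 0.43, and the called genes became 2039 higher in yMSN and 82 higher in yCA. With total counts as the only scaling the median of all genes was 0.06 and the subpallial median 0.0016. Which centring suits the neurons of these dissections was not tested.

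Genes of medium spiny neuron signalling showed no lean to yMSN. Of the 24 found in the files, 20 reached 5 CPM, 0 were at least 2-fold higher in yMSN and 2 in yCA, with a median log2 ratio of -0.45 that became 0.02 when centred on the pan-neuronal genes. The called members were Cnr1, the cannabinoid receptor, at 220 CPM in yCA and 106 in yMSN, and Pde10a, a striatal phosphodiesterase, at 104 and 51.4. Penk, which encodes enkephalin, was the member with the highest ratio among those at 5 CPM, at 39.4 CPM in yMSN and 23.7 in yCA (0.74, interval 0.62 to 0.85). Drd1, listed as Drd1a, stood at 7.09 CPM in yMSN and 10.5 in yCA, Drd2 at 10.4 and 9.64, and Ppp1r1b at 19.1 and 26.1. These young levels were low beside dMSN, where the list summed to 10526 and 10486 CPM against 622 in yMSN and 927 in yCA.

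Genes used to mark hippocampal pyramidal neurons were likewise divided. Of 20, 16 reached 5 CPM, 0 were called in yMSN and 2 in yCA, with a median log2 ratio of -0.40 that became 0.07 when centred. The called members were Mpped1, at 411 CPM in yCA and 182 in yMSN, and Nptx1, a synaptic pentraxin, at 23.7 and 11.8. Wfs1, which marks CA1, stood at 20.3 CPM in yMSN and 19.0 in yCA. Man1a and Etv1 were higher in yMSN, by less than 2-fold.

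Genes of other brain regions split in direction. Of 26, 7 reached 5 CPM, with 2 at least 2-fold higher in yMSN and 3 in yCA, and a median log2 ratio of -0.40 (0.07 when centred). Tcf7l2, which marks the thalamus among other sites, stood at 131 CPM in yCA and 30.6 in yMSN (-2.10, interval -2.18 to -2.01). Gbx2, a thalamic factor, stood at 5.27 and 2.16 CPM, and Lhx1 at 9.92 and 3.29. The called members higher in yMSN were Otx2 at 30.5 and 9.79 CPM and Irx3 at 6.10 and 1.70. At trace level, Slc6a3, the dopamine transporter, had 72 counts in yCA and 4 in yMSN. Hoxa2, a hindbrain gene, had 35 and 1, a ratio of 39.1-fold with an interval for the log2 ratio of -10.63 to -2.72. Other members under 5 CPM went the other way. Centred on the pan-neuronal genes, En1 stood at 2.19, Pax2 at 2.20 and Gnrh1 at 2.35, against -3.86 for Slc6a3 and -4.82 for Hoxa2. Before centring, 9 of the 26 genes were higher in yMSN and 17 in yCA.

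A list of 12 thalamic genes and a list of 14 genes of cortical layers were added after these values had been seen, and they share Tcf7l2, Lhx9, Gbx2, Prox1 and Fezf2, among others, with the results above. Of the thalamic genes, 5 were at least 2-fold higher in yCA and 1, Calb2, in yMSN, with a median of -0.61. Of the cortical layer genes, all 14 had negative ratios, 6 past 2-fold, with a median of -0.83. Nfix stood at 532 CPM in yCA and 192 in yMSN, Sox5 at 167 and 59.6, and Ntsr1, which marks corticothalamic neurons, at 26.4 and 8.68.

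The top of the yMSN side held genes of the nose and of bone, beside the Y-linked genes given above. In the olfactory epithelium, sensory neurons pass odour binding through the G protein subunit encoded by Gnal, the cyclase Adcy3 and the channel of Cnga2, Cnga4 and Cngb1, and Rtp proteins carry the receptors to the surface. Of the 18 olfactory sensory neuron genes found in the files, 15 reached 5 CPM, 9 were at least 2-fold higher in yMSN and 0 in yCA, and the median log2 ratio was 3.66. Rtp1 stood at 37.6 CPM in yMSN, 0.257 in yCA, 0.258 in HP, 0.0252 in SP, and 0.374 and 0.129 in dMSN. Cnga2 stood at 13.7 CPM in yMSN and 0.231 in yCA, and at 0.190 CPM or less in the other 4 libraries.

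Omp had 1862 counts in yMSN and 11 in yCA, a log2 ratio of 7.24 (interval 6.40 to 8.25). The receptor transporters Rtp1 and Rtp2 had ratios of 7.19 and 7.62, Cnga2 of 5.89 and Stoml3, a protein of sensory cilia, of 5.42. Gng13, the G protein subunit that pairs with the olfactory one, had 305 counts in yMSN and 2 in yCA, a log2 ratio of 7.09 (interval 5.23 to 10.15), but at 45.3 and 40.1 CPM in dMSN it was higher still there. The 5 members that were not higher were Gnal, Slc17a6, Ncam2, Olfm1 and Ric8b, which stood between 14.5 and 236 CPM in both young libraries. Gnal, which striatal neurons also use, stood at 145 CPM in yMSN and 164 in yCA.

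The promoters of Cnga2 and Gng13 are shown because both genes were among those that set the libraries apart and both carry the core of the Olf-1 site, bound by the EBF factors, for which olfactory genes are known. Ebf2 itself stood at 100 CPM in yMSN and 13.0 in yCA. The sequences are the 250 bases before the start site in RefSeq (GRCm38.p6, plus strand, 5′ to 3′), at chrX:71991599-71991848 for Cnga2 and chr17:25716922-25717171 for Gng13, with the matches to CCCNNGGG in capitals. In Gng13 a pair of matches overlap.
Cnga2: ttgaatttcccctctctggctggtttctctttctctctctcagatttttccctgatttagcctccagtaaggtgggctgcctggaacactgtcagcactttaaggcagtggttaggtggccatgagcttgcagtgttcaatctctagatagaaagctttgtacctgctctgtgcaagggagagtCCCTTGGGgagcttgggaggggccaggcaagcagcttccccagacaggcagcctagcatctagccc
Gng13: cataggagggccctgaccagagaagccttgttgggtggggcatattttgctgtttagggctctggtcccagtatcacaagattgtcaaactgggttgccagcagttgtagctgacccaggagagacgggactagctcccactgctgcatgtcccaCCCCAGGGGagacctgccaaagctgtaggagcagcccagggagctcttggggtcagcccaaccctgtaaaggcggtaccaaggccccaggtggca
The motif reads the same on both strands. It was present in 7 of 21 promoters of the 15 olfactory sensory neuron genes with an entry (33.3%), in 11.8% of all 32851 promoters, and in 37.5% of the 16 promoters of motile cilia genes. A longer form of this core, with a further fixed base at each end, was in neither of the printed promoters. It was in 1 of the 21 olfactory sensory neuron promoters (4.76%), that of Gfy. Among all promoters its share was 0.779%, and among those of motile cilia genes 6.25%. Motif and genes were chosen after the expression values were known, and a match describes letters only.

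Olfactory receptor genes gave the broadest signal. Of 1096 receptor symbols, 881 (80.4%) had at least 1 count in yMSN and 44 (4.01%) in yCA, with 37 in HP, 42 in SP, and 43 and 42 in the dMSN libraries, although these held 152347673 and 145713678 gene counts. The receptors summed to 120.9 CPM in yMSN, 18.0 in yCA, 11.3 in HP, 13.4 in SP, and 14.1 and 13.6 in dMSN. Of the 1095 receptors other than Olfr613, which is given below, 873 had more counts in yMSN than in yCA and 4 had more in yCA. The signal was thin per gene, with a median of 3 counts in yMSN and 443 receptors over 3 counts, against 9 in yCA. Olfr15 had 94 counts in yMSN and 0 in yCA.

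Olfr613 did not follow the family: it stood at 8.79 CPM in yMSN, 8.02 in yCA and 6.10 to 7.65 in the other 4 libraries. Olfr628 had 196 counts in yMSN and 278 in yCA. Without Olfr613, which was singled out after its values were seen, the sums were 112 CPM in yMSN and 9.998 in yCA. Of the 9 genes of the vomeronasal organ list, 3 reached 5 CPM and 5 had 3 counts or fewer in both young libraries. None was called in either direction, and the median log2 ratio was -0.22 (0.25 when centred). Vomeronasal type 1 receptors summed to 10.1 CPM in yMSN and 9.84 in yCA, of which Vmn1r58 alone gave 5.80 and 4.96. Type 2 receptors summed to 1.98 and 1.41. By the number with a count, both families were broader in yMSN. Of 204 type 1 receptors, 33 had a count in yMSN, 7 in yCA and 6 to 8 in the other libraries. Of 117 type 2 receptors, 37 had a count in yMSN, 14 in yCA and 6 to 11 in the others. Those over 3 counts were few, 6 and 4 of type 1 and 7 and 4 of type 2 in yMSN and yCA.

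**Figure D4:**
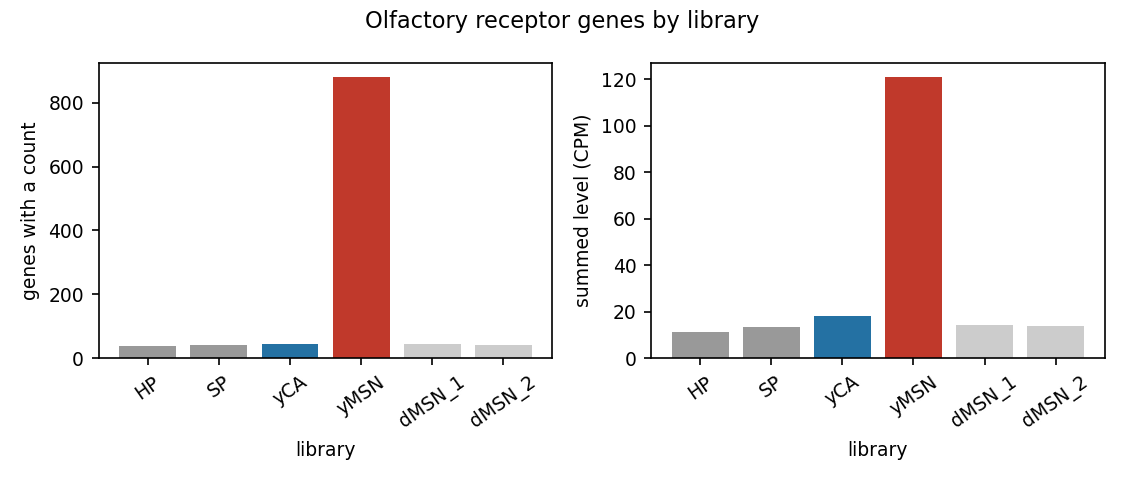
Olfactory receptor genes in the 6 RNA libraries: left, the number of the 1096 receptor symbols with at least 1 count; right, their summed level in TMM-scaled CPM. The yMSN library stands alone with 881 genes and 120.9 CPM, while the other 5 lie between 37 and 44 genes and between 11.3 and 18.0 CPM.

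Glands and lining of the nose and airway were higher in yMSN as well. Of 19 listed genes, 13 reached 5 CPM, 12 were at least 2-fold higher in yMSN and 0 in yCA, and the median log2 ratio was 4.01. The list summed to 777 CPM in yMSN, 32.8 in yCA, 8.78 in HP, 7.20 in SP, and 13.7 and 15.2 in dMSN. Ugt2a1, an olfactory enzyme that conjugates odorants, stood at 190 CPM in yMSN and 0.206 in yCA, and at 0.201 CPM in HP, 0.151 in SP and 0 in both dMSN libraries, a ratio of 924-fold (log2 interval 8.87 to 11.06).

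Bpifa1, a secreted protein of the upper airway, stood at 319 CPM in yMSN and 0.463 in yCA (log2 9.43, interval 8.77 to 10.18). The olfactory cytochromes Cyp2g1 and Cyp2a5 stood at 49.4 and 33.1 CPM in yMSN and at 0.103 in yCA, with Cyp2a5 also at 3.98 and 4.78 CPM in dMSN and Cyp2g1 at 0.0665 and 0.147. Muc2, a gel-forming mucin, stood at 10.5 and 0.154. Bpifb9b had 526 counts in yMSN and 0 in yCA, at least 157-fold higher. Scgb1a1, of club cells, and Obp1a were at 0 in both libraries.

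Among genes outside the lists, the same extreme held the enzymes Acsm4 (39.4 CPM in yMSN and 1 count in yCA, with a log2 interval of 8.10 to 15.89), Aox3l1 (45.0 and 0.154 CPM), Sult1c1 and Sult1e1. The sulfotransferases had 686 and 646 counts in yMSN and 0 in yCA, at least 205-fold and 193-fold higher. Fetub stood at 7.94 CPM in yMSN with 1 count in yCA (log2 interval 5.78 to 13.58). Each of these was under 1 CPM in the precursors and in dMSN. The lipid flippase gene Atp8b4, at 24.3 CPM in yMSN and 0.206 in yCA, also stood at 3.16 in HP and 1.06 in SP.

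Motile cilia genes, shared by airway lining, ependyma and choroid plexus, were all higher in yMSN. Of the 19 in the files, 19 reached 5 CPM, 15 were at least 2-fold higher in yMSN and 0 in yCA, and the median log2 ratio was 1.93. Foxj1, the regulator of motile cilia, stood at 61.7 CPM in yMSN, 15.2 in yCA, and the cilia light chain gene Dynlrb2 at 18.1 and 1.88. Tmem212 and Ccno, a regulator of multiciliated cells, had the highest ratios of the list, 3.71 and 3.62. These genes do not tell airway cilia from ependymal cilia.

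Cartilage and bone were the second group. Of 21 cartilage genes, 14 reached 5 CPM, 12 were at least 2-fold higher in yMSN and 1 in yCA, with a median log2 ratio of 3.60. Acan had a log2 ratio of 4.21 (interval 3.90 to 4.54). Col2a1, the main collagen of cartilage, stood at 320 CPM in yMSN and 40.3 in yCA, Col11a2 at 170 and 9.23, and Matn1, a cartilage matrix protein, at 9.87 and 0.154. Sox5, higher in yCA, is also a gene of cortical neurons, and Sox9, at 44.3 and 45.1 CPM, of glia. The list sums of 948 CPM in HP and 813 in SP were close to the 1165 in yMSN and above the 361 in yCA.

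Of 18 bone genes in the files, 15 reached 5 CPM, 12 were at least 2-fold higher in yMSN and 1 in yCA, with a median log2 ratio of 4.22. Ibsp, the bone sialoprotein, stood at 322 CPM in yMSN, 1.98 in yCA, 0.517 in HP, 0.378 in SP, and 0.0831 and 0.216 in dMSN (log2 ratio 7.34, interval 7.02 to 7.69). The osteoblast regulators Sp7 and Runx2 stood at 38.3 and 31.5 CPM in yMSN and at 0.591 and 1.54 in yCA. Markers of bone-resorbing osteoclasts were also higher, with Acp5 at 9.60 and 0.514 CPM and Ctsk at 51.4 and 11.5. Panx3, a channel of osteoblasts and chondrocytes outside the lists, stood at 24.4 and 0.103.

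Fibroblast and meningeal genes moved with them: of 11, all at 5 CPM, 9 were at least 2-fold higher in yMSN and 0 in yCA, with a median of 2.15. Col1a1 stood at 6723 CPM in yMSN and 506 in yCA, and Col1a2 at 4595 and 505. Lum, a matrix proteoglycan, stood at 161 and 29.2 CPM, and Foxc1, a meningeal regulator, at 25.4 and 5.73. The summed list was 15637 CPM in yMSN and 3286 in yCA, against 2546 in HP and 2483 in SP.

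**Figure D5:**
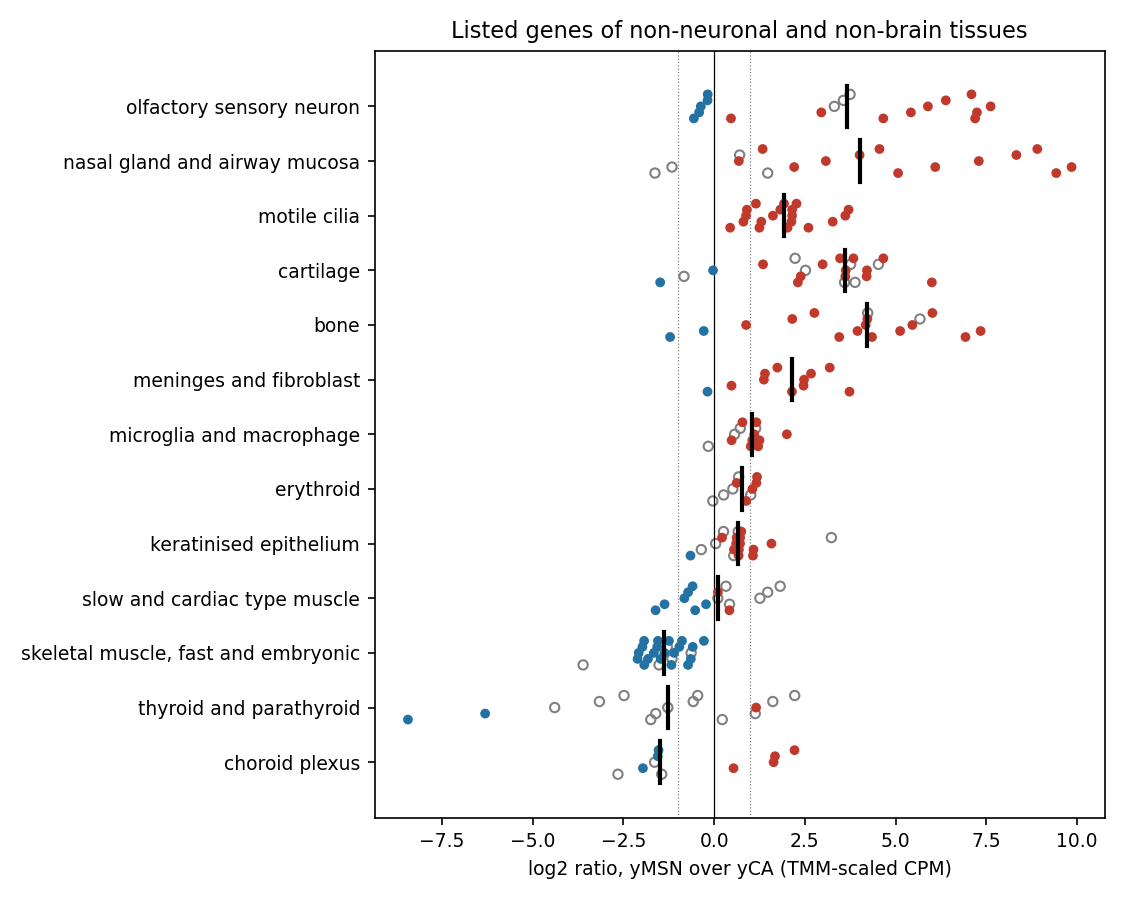
Log2 ratio of yMSN over yCA (horizontal axis, TMM-scaled) for genes of 13 lists of non-neuronal and non-brain tissues, 1 point per gene; filled points reached 5 CPM in the higher library, open points did not, and black bars are list medians over all points. Medians run from 4.22 in bone and 4.01 in nasal glands to -1.37 in skeletal muscle and -1.49 in choroid plexus.

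Skeletal muscle genes were higher in yCA and present in both young libraries. Of 25 genes of fast and embryonic muscle, 20 reached 5 CPM, 14 were at least 2-fold higher in yCA and 0 in yMSN, all 25 had negative ratios, and the median was -1.37. The list summed to 7102 CPM in yCA and 2604 in yMSN, against 21.9 in HP, 19.0 in SP, and 297 and 219 in dMSN. Acta1, the actin of skeletal muscle, stood at 1460 CPM in yCA, 500.0 in yMSN, 1.61 in HP, 2.06 in SP, and 28.2 and 28.4 in dMSN. Myh8, the perinatal myosin heavy chain, stood at 1430 CPM in yCA and 332 in yMSN (-2.11, interval -2.13 to -2.08), and at 2.32 CPM or less in the other 4.

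Myh3, the embryonic myosin, differed less, at 996 CPM in yCA and 639 in yMSN (-0.64). Ckm, the muscle creatine kinase, stood at 391 and 103 CPM, and the regulators Myog and Myod1 at 71.5 and 10.5 CPM in yCA and 33.4 and 8.68 in yMSN. Other muscle genes, outside the lists, were among those with the largest ratios on the yCA side: the mitochondrial creatine kinase Ckmt2 stood at 16.3 CPM in yCA and 1.75 in yMSN, the sarcomere protein Myoz1 at 42.8 and 8.17, Xirp2 at 11.9 and 1.54, Mybpc1, a myosin binding protein, at 310 and 67.4, and Atp1b4 at 145 and 33.2.

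Slow and cardiac type genes were mixed. Of 16, 9 reached 5 CPM, 2 were at least 2-fold higher in yCA (Actc1 and Casq2) and 0 in yMSN, and the median log2 ratio was 0.10. Actc1, an actin that embryonic skeletal muscle also expresses, stood at 1066 CPM in yCA and 414 in yMSN.

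The promoters of Ckm and Mylpf, the fast muscle light chain, are shown because they carry CAGCTG, the form of the E-box that the factors Myod1 and Myog are known to bind. They are the 250 bases before the start site in RefSeq (GRCm38.p6, plus strand, 5′ to 3′), at chr7:19410844-19411093 and chr7:127211358-127211607, with the match in capitals.
Ckm: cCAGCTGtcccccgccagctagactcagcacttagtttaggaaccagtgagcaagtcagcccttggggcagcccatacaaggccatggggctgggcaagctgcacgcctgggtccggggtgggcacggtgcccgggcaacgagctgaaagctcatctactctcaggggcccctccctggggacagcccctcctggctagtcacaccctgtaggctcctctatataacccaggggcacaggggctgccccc
Mylpf: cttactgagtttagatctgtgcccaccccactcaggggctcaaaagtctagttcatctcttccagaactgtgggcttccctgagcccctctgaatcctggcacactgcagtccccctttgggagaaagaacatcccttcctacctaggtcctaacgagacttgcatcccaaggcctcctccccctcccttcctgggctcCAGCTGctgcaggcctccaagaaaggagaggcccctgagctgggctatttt
The motif, which reads the same on both strands, was in 9 of 18 promoters of the 17 muscle genes with an entry (50%) and in 13.0% of all 32851 promoters. Among the other lists it was in 23.5% of bone, 15.8% of cartilage and 9.52% of olfactory sensory neuron promoters.

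Thyroid and parathyroid genes marked yCA at a lower level. Of 15, 3 reached 5 CPM, 2 were at least 2-fold higher in yCA and 1 in yMSN, and the median log2 ratio was -1.27. Tg had 2981 counts in yCA and 42 in yMSN, 79.3-fold (log2 -6.31, interval -6.78 to -5.87). Pth, the parathyroid hormone, had 310 counts in yCA and 1 in yMSN (log2 -8.44, interval -13.74 to -5.95), and 1 or 0 counts in each of the other libraries. Slc26a7, a chloride exchanger not restricted to the thyroid, was the member higher in yMSN, at 17.6 and 7.89 CPM. Scgb3a2, a secretoglobin of the airway outside the lists, had 220 counts in yCA and 2 in yMSN (log2 -6.94, interval -10.00 to -5.07). The list summed to 107 CPM in yCA and 28.6 in yMSN.

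Among brain cells other than neurons, microglia and macrophage genes were higher in yMSN: of 13, 9 reached 5 CPM, 7 were at least 2-fold higher in yMSN and 0 in yCA, with a median of 1.05. C1qb, a complement gene of microglia, stood at 18.7 CPM in yMSN and 8.35 in yCA, and Lyz2, a lysozyme of macrophages, at 19.5 and 4.86. P2ry12, which microglia express and most other macrophages lack, had 132 counts in each library. Endothelial and pericyte genes had a median of 0.42, with 1 of 13 called, the pericyte receptor Pdgfrb at 101 and 45.6 CPM.

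Of 17 astrocyte and oligodendrocyte genes, 15 reached 5 CPM and 4 were at least 2-fold higher in yMSN and 0 in yCA, with a median of 0.24. Aqp4, a water channel of astrocytes, stood at 27.9 CPM in yMSN and 4.01 in yCA, and S100b at 5.75 and 1.00. Sox10, at 16.6 and 6.19 CPM, is shared by oligodendrocytes and Schwann cells. Slc1a3 and Fabp7, of radial glia and astrocytes, stood at 145 and 285 CPM in yMSN and at 160 and 325 in yCA. The 20 cell cycle genes gave 0 calls and a median of 0.30, with 19 of 20 higher in yMSN. Birc5, a mitotic survival protein, differed most, at 34.6 and 18.9 CPM.

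Choroid plexus genes went in opposite directions. Of 10, 7 reached 5 CPM, 3 were at least 2-fold higher in yMSN and 3 in yCA, with a median of -1.49 over all 10. Ttr, the transthyretin that the choroid plexus secretes, stood at 309 CPM in yCA, 105 in yMSN, 0.517 in HP, 33.7 in SP, and 5462 and 4292 in dMSN. Kcne2 stood at 6.27 and 1.61 CPM and Cldn2 at 5.45 and 1.89, higher in yCA. Clic6, Aqp1 and Otx2, which other epithelia express as well, had log2 ratios of 2.22, 1.68 and 1.64.

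The remaining lists were smaller. For comparison, 8.62% of all genes at 5 CPM were called in yMSN. Keratinised epithelium was present in both young libraries. Its sums were 582 CPM in yMSN and 394 in yCA, against 47.9 in HP and 26.6 in SP. Of its 21 genes, 13 reached 5 CPM and 3 were at least 2-fold higher in yMSN, with a median of 0.66. Krt5, a basal keratin, stood at 125 and 74.5 CPM. Of 10 erythroid genes, 5 reached 5 CPM and 3 were called in yMSN, with a median of 0.78. The globin Hbb-b1 stood at 431 and 207 CPM. Of 16 peripheral ganglion and Schwann cell genes, 6 reached 5 CPM and 3 were called in yMSN, with a median of 0.76. Prph, an intermediate filament of peripheral neurons, stood at 23.2 and 2.18 CPM.

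Of 10 pituitary genes, 2 reached 5 CPM and both were called in yMSN, Pitx1 and Lhb. Salivary gland (Aqp5), inner ear (Coch) and eye and pigment cell (Otx2) lists had 1 called member each in yMSN. Of their members, 2, 1 and 2 reached 5 CPM. Hair and skin appendage, thymus and lymphoid, adipose, tooth, and liver, pancreas, kidney and lung lists had 0 called members. In these lists only 1, 1, 3, 0 and 0 genes reached 5 CPM, so few or none could be called. Their medians were 0.92, 0.84, 0.11, 0.16 and 0.40, over the 7, 9, 6, 3 and 8 genes with a ratio. Of the 6 sex-linked genes, 5 reached 5 CPM and 4 were called in yMSN. Alb and Ins1 had at most 1 count in either library. The part of RNA from these tissues in the ratios of the neuronal genes was not tested.

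Some of the large ratios belonged to genes that dMSN also expressed at 5 CPM or more. On the yMSN side these included Spp1, a matrix phosphoprotein, at 122 CPM in yMSN and 3.50 in yCA, Trim66 at 103 and 4.83, the methyltransferase Inmt at 10.04 and 0.180 and Kirrel2 at 6.65 and 0.206. Trim66 stood at 14.3 and 12.2 CPM in dMSN, 1.84 in HP and 0.881 in SP. On the yCA side were Nr4a3, an activity-induced nuclear receptor, at 54.5 CPM in yCA and 10.8 in yMSN, Arhgap36 at 139 and 37.2, the muscle and brain glycogen enzyme Pygm at 165 and 44.7, Mctp1 at 10.8 and 2.76 and mmu-mir-689-2 at 44.1 and 9.02. Genes at these levels in dMSN cannot be given to a tissue outside the brain by their presence alone.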

How the data were processed

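Each library has a deposited table of unnormalised read counts, 1 row for each gene symbol, closed by 5 summary lines. As tools, the submitters' processing notes list edgeR, HTSeq, methylKit, Bowtie 1.0.0, TopHat, TopHat2 2.0.2 and Bismark, and as builds NCBIM37 and mm9, with no role for any. A strand setting is not given in the sources used here, so antisense and overlapping genes cannot be told apart. In yMSN and yCA, 6.53% and 6.81% of reads fell in no gene, 1.44% and 1.43% were ambiguous and 24.2% and 22.4% aligned to several places, and these lines were left out.

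TMM factors (1.18 in yMSN, 1.10 in yCA) were fitted over the 6 libraries with edgeR 4.0.16 in R 4.3.3. Ratios, exact 95% intervals and lists were computed in Python 3.11.15 with scipy 1.17.1, and tested on simulated counts. Intervals cover counting error only, and reads without molecular identifiers are not independent molecules. Called means at least 2-fold with 5 CPM in the higher library. The 36 lists (561 entries, 556 found) and their members were chosen with earlier results of these data known. Named genes are list members, the 20 largest ratios in each direction by the interval bound nearest to no change (without predicted, clone-named, pseudogene and receptor symbols), and the 12 largest among genes at 5 CPM in both dMSN libraries. Alternatives were other scalings, filters, folds and splits, and a prior count. Values of some single list members are not reported here, although they count in the totals of their lists.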

Additional observations from a re-analysis of the deposited data

Results flagged for a closer look

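For 14 of the listed or named genes the striatal to hippocampal difference had opposite signs in the young pair (yMSN over yCA) and in the precursor pair (SP over HP), at 2-fold or more in each pair and with 5 CPM or more in the higher library of each pair. Genes with the same sign in both pairs were not counted, nor were unlisted genes, so the 14 have no share beside them. Each pair is 1 library against 1 library, so the difference between the pairs was not tested. Among brain genes, the log2 ratios in the young pair and the precursor pair were -1.91 and 1.48 for Bhlhe22, -2.70 and 1.04 for Lhx9, -2.37 and 1.11 for Prox1, -1.59 and 1.77 for Lhx1, -1.06 and 1.31 for Cnr1, -1.01 and 1.01 for Nptx1, -1.03 and 1.26 for Nefm, and -2.34 and 1.15 for Nr4a3. In the precursors Prox1 stood at 40.5 CPM in SP and 18.8 in HP, and Bhlhe22 at 13.3 and 4.77. Ttr had ratios of -1.55 and 6.03, with 33.7 CPM in SP and 0.517 in HP. Sox10 had ratios of 1.42 and -2.35.

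Outside the brain lists, Runx2 had ratios of 4.35 and -1.60, and Mybpc1 of -2.20 and 2.52. The Y-linked genes Ddx3y (8.04 and -6.69) and Kdm5d (7.15 and -6.55) had a count of 0 in yCA and in SP, and their ratios are bounds against 3 counts.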

How the results depend on the processing

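The split of called genes moved most with the centring: on the pan-neuronal median, 2039 genes were higher in yMSN and 82 in yCA (96.1% in yMSN, against 80.3% in the reported values), 31 of the yCA genes were low in the precursors and dMSN, and 6 pallial and 5 subpallial factors were called. RLE scaling called 0 subpallial factors, as did a call by the interval bound. Under RLE 15 pallial factors were called, against 10 in the reported values. At 1 CPM in the higher library, 1840 genes were higher in yMSN, 397 and 113 were low in the other libraries (yMSN and yCA side), and 5 thyroid and parathyroid genes were called. At more than 3 counts these were 3386 (929 in yCA), 1763 and 558, and 8. At 20 CPM they were 439, 23 and 31, and 1, with 4 olfactory sensory neuron genes. At 4-fold, which was run for the totals only, the counts were 408 and 24. With the split at 0.5 or 2 CPM, 59 or 177 genes higher in yMSN were low in the other libraries, and leaving out a dMSN library gave 90 to 96 on the yMSN side and 53 to 54 on the yCA side. The other counts computed (both totals, both low classes, and the olfactory sensory neuron, cartilage, skeletal muscle, thyroid and parathyroid, pallial and subpallial calls) stayed within 1.5 times of those reported. No listed or named gene past 2-fold changed sign under another scaling or the prior count. The cause of these moves was not tested beyond the filters' own construction. Of 525 single-gene ratios, those outside their counting interval numbered 129 under RLE, 138 with total counts, 343 when centred, 21 with upper quartile scaling, and 0 with a prior count of 2 or TMM on the pair alone.

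No paired analysis was possible because each group compared holds 1 library. Counting intervals widen toward 5 CPM, and they say nothing of spread between animals or dissections.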
